A study of Homo sapiens with 6 samples.

Results

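The mature epithelium of the colon and small intestine holds absorptive cells, which carry a brush border and take up water, salts and nutrients, goblet cells, which secrete mucus, and enteroendocrine cells, which release peptide hormones and serotonin. Paneth cells of the small intestine secrete antimicrobial peptides. The homeobox factors CDX1 and CDX2 set intestinal identity, ATOH1 opens the secretory fate, SPDEF drives goblet maturation, and NEUROG3 followed by NEUROD1, PAX4, PAX6, INSM1 and ISL1 leads to the endocrine fates.

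Expression of 53 listed markers of these lineages was examined in HCT116 cells, a long-established line from a human colorectal carcinoma, as a set of 20 absorptive, 15 goblet, 3 Paneth and 15 enteroendocrine genes. A gene was taken where a probe set carried its symbol and no other, and where several did, the one with the highest mean signal stood for it. This gave 50 of the 53 markers, out of 18404 genes in all. FABP1, the liver-type fatty acid-binding protein, shares its probe set's annotation with a second gene and was left out, and MUC5AC and NEUROD1 were not analysed here.

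The series compared cells sorted for CD133, the glycoprotein encoded by PROM1 that serves to enrich tumour-initiating cells. The CD133+ group and the CD133- group were both sorted from HCT116, with 3 arrays each, numbered as repetitions 1 to 3 in both. Since no label calls the repetitions separate cultures or separate sorts, the p-values reflect only the spread between these arrays, which may be technical. PROM1 read 7.59, 7.36 and 7.09 in CD133+ cells, against 5.30, 4.46 and 3.97 in CD133- cells, on a log2 scale, so that the arrays followed their labels.

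Signals are log2 values of Robust Multichip Average (RMA), and differences are CD133+ minus CD133-, taken within repetitions. They were tested with limma over 28230 probe sets with repetition as a block, at a Benjamini-Hochberg adjusted p of 0.05. A probe set's signal depends on how well its own probes bind, so levels of different genes were not ranked against each other. The median signal of all tested probe sets, 5.53, served only to set dim markers apart. By it, 12 of the 50 markers (24.0%) were above the median, against 61.1% of all genes, as the plot of signal against difference shows. ATOH1 at 5.54, SPDEF at 5.58 and CDHR5 at 5.60 lay just above the line, and MUC2 and MUC5B, both at 5.51, GUCA2A at 5.45 and ALPI at 5.44 just below it. As bulk RNA was measured, fewer cells of a type and less RNA per cell cannot be told apart.

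**Figure D1:**
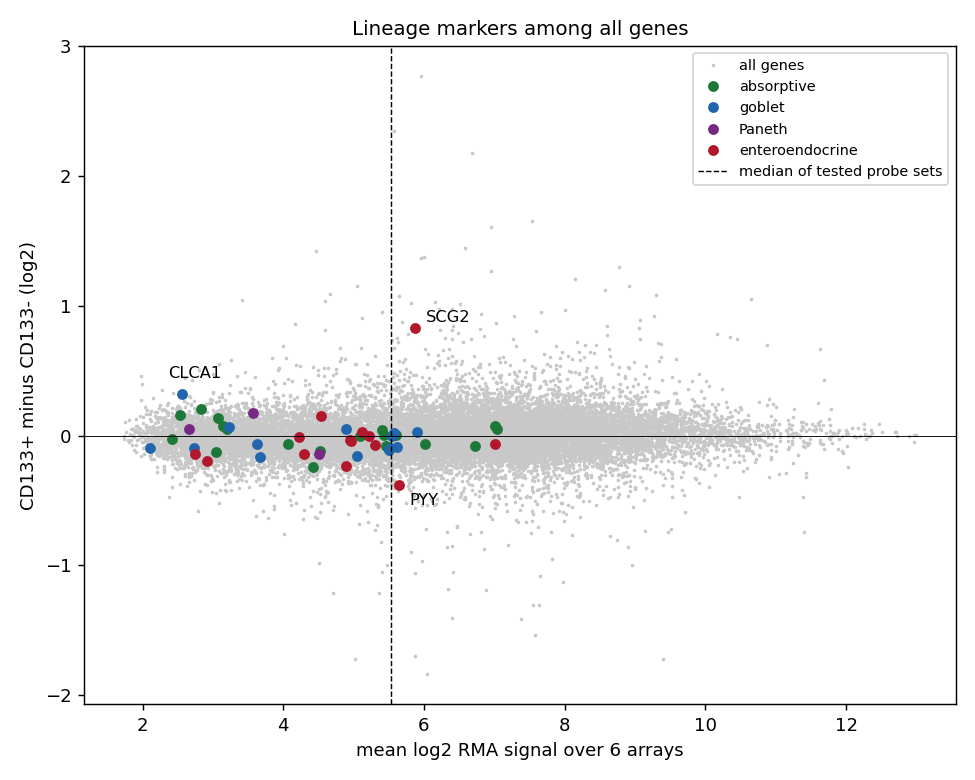
Mean log2 RMA signal over 6 arrays (horizontal axis) against the CD133+ minus CD133- difference on the log2 scale (vertical axis) for 18404 genes in grey, with the 50 lineage markers coloured by lineage and the median signal of the tested probe sets, 5.53, as a dashed line. Most markers lie left of the line and near 0, and SCG2 at 0.83 lies farthest above 0 among them.

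SCG2 was the 1 marker of 50 that passed the test, and it rose in CD133+ cells. Over all 18404 genes 0.369% passed in either direction (68 genes), 0.196% as higher and 0.174% as lower. SCG2 encodes secretogranin II, a granin of the dense-core granules of endocrine cells and neurons and the precursor of the peptide secretoneurin. It read 6.56, 6.28 and 6.02 in CD133+ cells, against 5.83, 5.49 and 5.07 in CD133- cells. Every CD133+ array exceeded every CD133- array, and the gap within repetitions 1, 2 and 3 was 0.73, 0.79 and 0.96. The difference was 0.83 (SE 0.087, 95% confidence interval 0.62 to 1.04), or 1.77-fold, with a limma adjusted p of 0.0336, and it ranked 71 by size among all genes. Over both groups the repetitions themselves differed by up to 0.65 in SCG2. In the fit with group as the only term, which leaves that spread in the error, the limma adjusted p was 0.952 and 0 markers passed, as did 0.00543% of all genes. At an unadjusted limma p under 0.05 that fit had 2 of 50 markers and 3.47% of all genes. The call was also lost in the limma fits without any 1 repetition (adjusted p 0.0623 to 0.181) and with control rows kept (0.157).

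**Figure D2:**
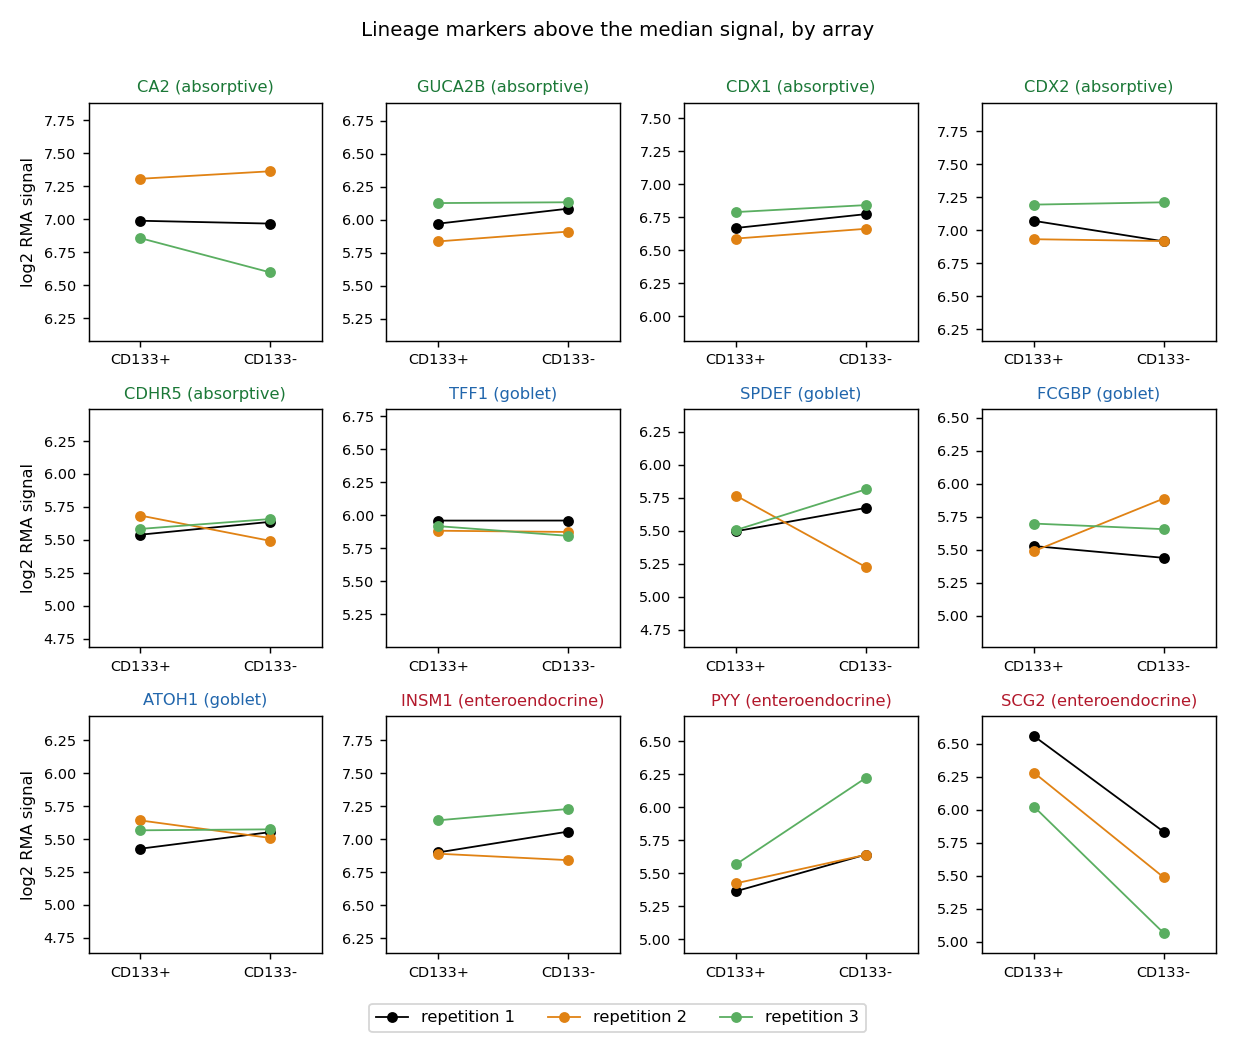
Log2 RMA signal (vertical axis, the same span in each panel) of the 12 markers above the median signal in CD133+ and CD133- arrays, 1 point per array, with lines joining arrays of the same repetition. The 3 lines of SCG2 are higher at their CD133+ end by 0.73 to 0.96, whereas those of CDX2 run within 0.16 of level.

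The other granins and granule proteins among the markers did not pass. CHGA, chromogranin A, the general marker of endocrine granules, read 4.81, 4.88 and 5.13 in CD133+ cells and 5.03, 4.72 and 5.20 in CD133- cells, a difference of -0.04 (95% confidence interval -0.28 to 0.20). CHGB, chromogranin B, read 3.96, 4.30 and 4.40 in CD133+ cells and 4.23, 4.14 and 4.33 in CD133- cells, a difference of -0.01 (-0.27 to 0.24). The groups overlapped in both, and both lay below the median signal in every array. SCG5, a chaperone of a prohormone convertase, had a difference of 0.15 (-0.09 to 0.39), and SYP, the vesicle protein synaptophysin, one of -0.01 (-0.26 to 0.25). The intervals of these 4 genes lie below that of SCG2, although the difference between genes was not tested. SCG3 and VGF, granins that were not among the markers, differed by -0.0021 and 0.023.

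Granin promoters are known for a cyclic AMP response element, which is shown here for CHGA, the granin that differed by -0.04 where SCG2 rose. No promoter entry was available for SCG2 or CHGB, so neither was searched. The search covered the 250 bases before each RefSeq start on both strands, for TGACGTCA, whose reverse complement is the same. It was present in 1.65% of 35114 promoters (GRCh38.p14) and in 3 of the 44 promoters found for 34 of the markers, those of CHGA, PAX6 and SST. The CHGA window, chr14:92922900-92923149 on the plus strand, holds it once, from base -54 (the last base before the start being -1), in capitals. The match is a description of these letters and says nothing of use in these cells.
CHGA: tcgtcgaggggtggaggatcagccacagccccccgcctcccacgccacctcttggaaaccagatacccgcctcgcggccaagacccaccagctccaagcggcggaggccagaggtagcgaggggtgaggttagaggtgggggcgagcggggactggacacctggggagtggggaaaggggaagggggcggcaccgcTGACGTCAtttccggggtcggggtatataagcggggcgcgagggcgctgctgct

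The transcription factors and hormones of the endocrine lineage gave no call either. INSM1, a zinc finger repressor of endocrine progenitors, read 6.90, 6.89 and 7.14 in CD133+ cells and 7.06, 6.84 and 7.23 in CD133- cells. Its difference was -0.06 (SE 0.085), and repetition 3 was highest in both groups. PYY, the gene of the L cell hormone peptide YY, read 5.36, 5.42 and 5.57 in CD133+ cells, against 5.64, 5.64 and 6.22 in CD133- cells. Its groups did not overlap, with CD133- repetition 3 standing highest, and the difference was -0.38 (SE 0.109, limma adjusted p = 0.279). NEUROG3, the factor that starts the endocrine programme, read 4.72, 4.57 and 5.05 in CD133+ cells and 5.03, 4.81 and 5.21 in CD133- cells. It was lower in CD133+ within each repetition, by 0.16 to 0.31 in size, while the groups overlapped (difference -0.23, limma adjusted p = 0.365). TPH1, the enzyme of serotonin synthesis in the gut, read 2.89, 3.00 and 2.57 in CD133+ cells and 2.94, 3.25 and 2.85 in CD133- cells (difference -0.20, limma adjusted p = 0.478).

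GCG, the gene of glucagon and GLP-1, had a difference of -0.14 with groups that did not overlap, and SST, the gene of somatostatin, one of -0.14 with groups that did. The mean signal of GCG over the 6 arrays was 2.74, near the bottom of the scale. The factor genes PAX4, PAX6 and ISL1 differed by -0.07, 0.03 and -0.04. Of the 14 enteroendocrine markers measured, 3 were higher and 11 lower in CD133+ cells, with a median difference of -0.05. Over all genes 47.9% were higher and the median was -0.0064, and among genes below the median signal 40.5% were higher. Under repeated quantile normalization 5 of the 14 were higher, and without repetition 1 it was 6. Of the 14, 3 had an unadjusted limma p under 0.05, namely SCG2, PYY and NEUROG3, against 11.6% of all genes. With SCG2 set aside it was 2 of 13.

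Absorptive markers were nearly level between the groups, with 10 of 19 higher and 9 lower in CD133+ cells and a median difference of 0.0064. Of the 19, 0 passed, and 1 had an unadjusted limma p under 0.05, against 11.6% of all genes. Only CA2, GUCA2B, CDX1, CDX2 and CDHR5 were above the median signal. CDX2 read 7.07, 6.93 and 7.19 in CD133+ cells and 6.92, 6.92 and 7.21 in CD133- cells, a difference of 0.05 (95% confidence interval -0.15 to 0.25). Its paralogue CDX1 read 6.67, 6.59 and 6.79 in CD133+ cells and 6.77, 6.66 and 6.84 in CD133- cells, a difference of -0.08 (-0.27 to 0.11). Both factors were highest in repetition 3 in each group, and the groups overlapped.

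CA2, the cytosolic carbonic anhydrase of colonocytes, read 6.99, 7.31 and 6.86 in CD133+ cells and 6.97, 7.36 and 6.60 in CD133- cells. The repetitions accounted for 91.3% of its variance over the 6 arrays and the groups for 2.05%. GUCA2B, which encodes uroguanylin, a ligand of the receptor guanylate cyclase of the gut, read 5.97, 5.84 and 6.13 in CD133+ cells and 6.08, 5.91 and 6.13 in CD133- cells (difference -0.06). CDHR5, a protocadherin that links neighbouring microvilli, read 5.54, 5.68 and 5.58 in CD133+ cells and 5.64, 5.49 and 5.66 in CD133- cells. Its sign turned between repetitions, and the mean was 5.60 in both groups.

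The remaining 14 absorptive markers lay below the median signal. SLC26A3, the chloride and bicarbonate exchanger of the colon surface, read 2.77, 3.05 and 2.97 in CD133+ cells and 2.56, 2.83 and 2.78 in CD133- cells. It was higher in CD133+ within all 3 repetitions by 0.19 to 0.22, from signals near the bottom of the scale, with overlapping groups (difference 0.21, limma adjusted p = 0.402). CEACAM1, an adhesion molecule of the carcinoembryonic antigen family, read 4.14, 4.27 and 4.49 in CD133+ cells and 4.62, 4.27 and 4.74 in CD133- cells (difference -0.24, limma adjusted p = 0.476). Its relatives CEACAM5, CEACAM6 and CEACAM7 differed by -0.06, 0.08 and 0.05. The other brush border and transport genes did not pass either: VIL1, the microvillar actin bundler villin, at -0.12, ALPI, intestinal alkaline phosphatase, at 0.0064, and AQP8, a water channel, at -0.0019. FABP2, the intestinal fatty acid-binding protein, stood at 0.16, the carbonic anhydrases CA1 and CA4 at -0.13 and 0.04, MS4A12, a colonocyte membrane protein, at 0.13, and GUCA2A, encoding guanylin, at -0.08.

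SI, the disaccharidase sucrase-isomaltase and a textbook CDX2 target, lay near the bottom of the scale. It read 2.41, 2.43 and 2.36 in CD133+ cells and 2.47, 2.41 and 2.40 in CD133- cells, a difference of -0.03 (95% confidence interval -0.22 to 0.16). Its promoter is shown for the element that CDX proteins are known to bind there. The letters TTTATG, searched on both strands (reverse complement CATAAA) in the 250 bases before the start, were present in 9.64% of the 35114 promoters and in 8 of the 44 marker promoters. Those 8 belong to SI, MS4A12, MUC2, AGR2, AGR3, REG4, ITLN1 and GCG, all below the median signal. None of these genes passed in either direction, but only 0.369% of all genes did, so little can be read from that. In the SI window, chr3:165078497-165078746 on the minus strand (GRCh38.p14), the 3 matches in capitals begin at bases -236, -139 and -43.
SI: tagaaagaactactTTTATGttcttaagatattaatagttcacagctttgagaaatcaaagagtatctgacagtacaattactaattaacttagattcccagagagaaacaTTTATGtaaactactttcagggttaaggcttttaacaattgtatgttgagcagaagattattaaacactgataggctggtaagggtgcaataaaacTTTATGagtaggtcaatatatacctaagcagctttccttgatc

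Goblet markers likewise gave 0 calls (1 at an unadjusted limma p under 0.05, against 11.6% of all genes). Of the 14, 5 were higher and 9 lower, with a median difference of -0.08. Among all genes below the median signal, where 10 of the 14 lay, 40.5% were higher and the median was -0.027. ATOH1 read 5.43, 5.64 and 5.57 in CD133+ cells and 5.55, 5.51 and 5.57 in CD133- cells, with a mean of 5.54 in both groups. SPDEF read 5.50, 5.77 and 5.51 in CD133+ cells, against 5.67, 5.23 and 5.81 in CD133- cells. Its differences within repetitions were -0.18, 0.54 and -0.31, so the direction turned and the confidence interval was wide (-0.38 to 0.42). TFF1, a trefoil peptide of mucosal repair, read 5.96, 5.88 and 5.92 in CD133+ cells and 5.96, 5.87 and 5.84 in CD133- cells, a difference of 0.03 (-0.16 to 0.22). FCGBP, a large protein of the mucus gel, read 5.53, 5.49 and 5.70 in CD133+ cells and 5.44, 5.89 and 5.66 in CD133- cells (difference -0.09).

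CLCA1, a protease secreted into mucus, was the dim goblet marker with the smallest p. It read 2.66, 2.71 and 2.81 in CD133+ cells, against 2.46, 2.42 and 2.34 in CD133- cells. The groups did not overlap, but the mean signal over the 6 arrays was 2.57, near the bottom of the scale. The difference of 0.32 (SE 0.089) did not pass (limma adjusted p = 0.264). REG4, a secreted lectin-like protein, read 3.52, 3.50 and 3.72 in CD133+ cells and 3.72, 3.59 and 3.93 in CD133- cells (difference -0.17, limma adjusted p = 0.508). ZG16, a lectin of goblet granules, had 2 probe sets that disagreed in sign. The brighter one differed by -0.16 and the dimmer one by 0.22, neither passing (limma adjusted p = 0.530 and 0.422).

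The gel-forming mucins MUC2 and MUC5B were at -0.10 and -0.11, and both were lower in CD133+ cells within all 3 repetitions. AGR2, an isomerase needed for mucin folding, and its relative AGR3 were both at -0.10. TFF3, the goblet trefoil peptide, was at 0.05, ITLN1, an intelectin that binds microbial sugars, at 0.07, and the protease inhibitor SPINK4 at -0.06. None of these 7 genes was above the median signal.

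All 3 Paneth markers were dim and 0 passed (0 at an unadjusted limma p under 0.05, against 11.6% of all genes). DEFA6, an antimicrobial defensin, read 3.65, 3.68 and 3.64 in CD133+ cells, against 3.45, 3.40 and 3.60 in CD133- cells, without overlap (difference 0.17, limma adjusted p = 0.525). Its neighbour DEFA5 went the other way, with 4.42, 4.53 and 4.37 in CD133+ cells and 4.60, 4.53 and 4.63 in CD133- cells (difference -0.15, limma adjusted p = 0.613). LYZ, encoding lysozyme, differed by 0.05.

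**Figure D3:**
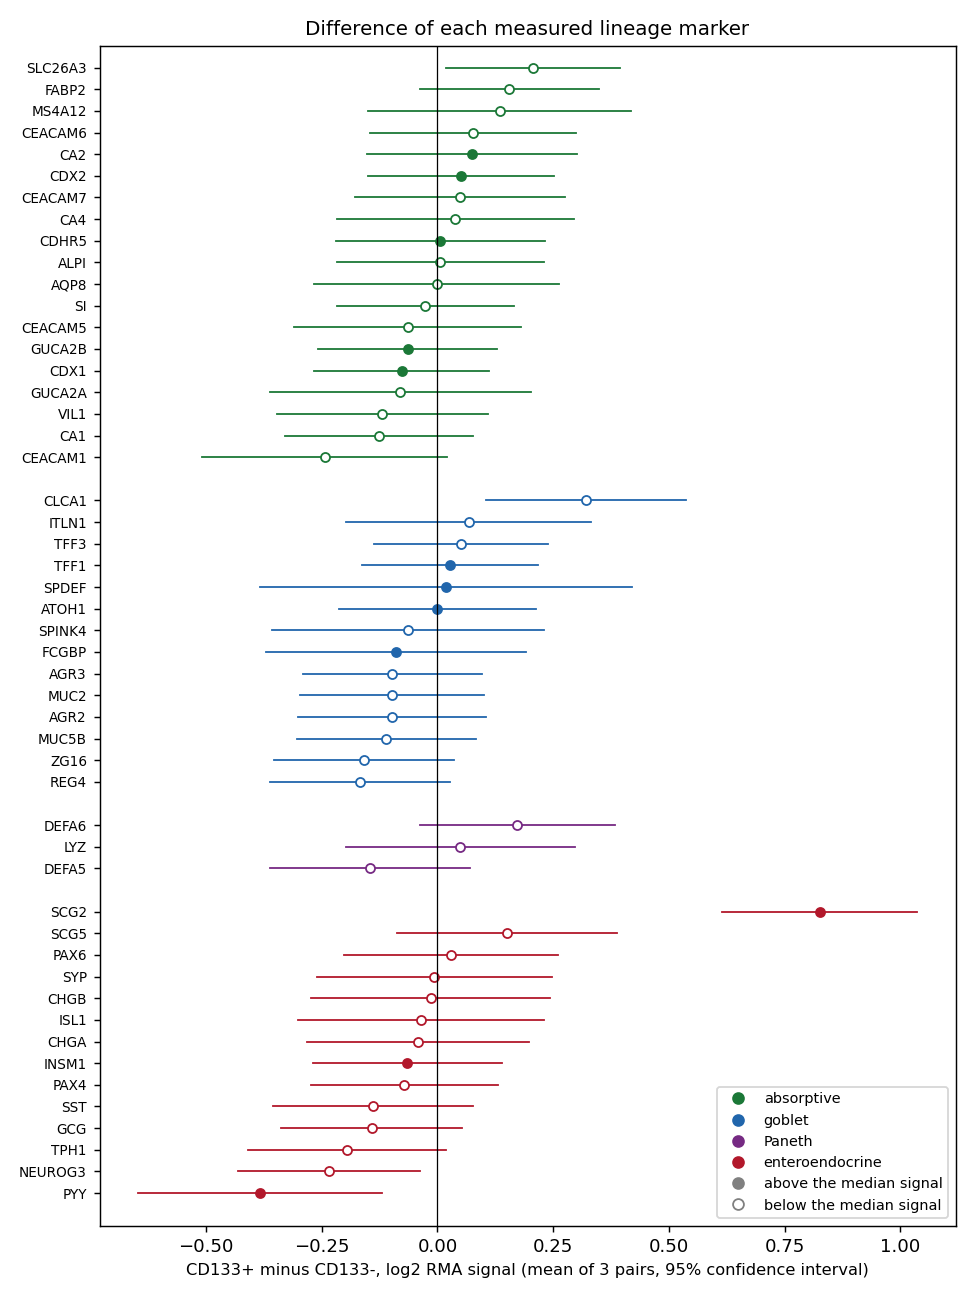
CD133+ minus CD133- difference in log2 RMA signal for each of the 50 measured markers (horizontal axis), sorted within its lineage, as the mean of 3 pairs with the 95% confidence interval; filled points are above the median signal of 5.53 and open points below it. The interval of SCG2, 0.62 to 1.04, lies to the right of 0.5. Of the 50 intervals 46 lie within 0.5 of 0, as do those of 16585 of all 18404 genes.

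Over the whole set, 20 markers were higher and 30 lower, with a median difference of -0.03, against -0.0064 over all genes. Among all genes below the median signal, where 38 of the 50 markers lay, the median was -0.027 and 40.5% were higher, close to the markers. The median size of a difference, regardless of sign, was 0.08 for the markers and 0.09 over all genes. The groups did not overlap for 6 of 50 markers (12%), namely SCG2, CLCA1 and DEFA6, higher, and PYY, ZG16 and GCG, lower, against 7.95% of all genes. The sign was the same in 3 of 3 repetitions for 6 higher and 14 lower markers of the 50, against 17.7% and 18.4% of all genes. An unadjusted limma p under 0.05 was reached by 5 of 50, against 11.6% of all genes. Confidence intervals lay within 0.5 of 0 for 46 of the 50 markers, the exceptions being SCG2, PYY, CLCA1 and CEACAM1. The same held for 16585 of all 18404 genes, so it is not particular to the markers. In simulated data a difference of 0.5 was recovered for 1 of 50 probe sets. There the residual spreads were shuffled among the probe sets, so that rate is not the rate for the markers. A marker without a call is not thereby shown to be unchanged.

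The repetitions accounted for more of the variance than the groups in 10 of the 12 markers above the median signal and in 29 of the 38 below it. In the 12 brighter markers the median share was 58.4% for the repetitions and 6.68% for the groups. SCG2 was one of the 2 exceptions, with 29.0% for the repetitions and 70.0% for the groups, and PYY the other, with 41.0% and 47.0%. Over both groups the means of the repetitions spanned 0.033 to 0.65 in these 12 genes. The 38 dim markers had medians of 50.5% for the repetitions and 14.2% for the groups. For all genes above the median signal the medians were 77.3% for the repetitions and 7.20% for the groups, and below it 52.2% and 10%. A larger repetition share is thus not particular to the markers. Repetition also has more levels than group, which enlarges its share even without an effect.

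Further genes of the same lineages were examined from lists that held none of the markers. Among other brush border and absorptive genes, 1 of 28 passed, against 0.369% of all genes, and it rose. This was DPP4, a brush border peptidase that cleaves incretin hormones, with 7.98, 7.03 and 6.91 in CD133+ cells, against 6.66, 5.32 and 5.61 in CD133- cells. The difference of 1.44 (SE 0.107, limma adjusted p = 0.0203) was at least 1.30 within each repetition, and repetition 1 stood highest in both groups. With group as the only term its limma adjusted p was 0.992. PLS1, a microvillar actin bundler named after its value was seen, had a difference of 0.49 with groups apart (limma adjusted p = 0.0921). MGAM, the maltase-glucoamylase related to SI and also named after its value was seen, had -0.62 with overlapping groups (limma adjusted p = 0.113). The list as a whole had 16 of 28 higher and a median of 0.05.

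Other goblet and mucus genes had 8 of 20 higher and 0 passing. At an unadjusted limma p under 0.05 there were 5 of 20, against 11.6% of all genes. By the brightest probe set of each gene, the 2 with the smallest p were enzymes that start mucin-type O-glycans. They were GALNT12 at 0.34 and GALNT3 at 0.46 (limma adjusted p = 0.202 and 0.226). The mucin gene MUC12, named after its values were seen, had 3 probe sets that disagreed in sign. The brightest differed by 0.07 and the dimmer ones by -0.48 and -0.29, none passing (limma adjusted p = 0.907, 0.181 and 0.394). Other enteroendocrine genes had 10 of 21 higher, a median of -0.0021 and 0 passing (1 at an unadjusted limma p under 0.05). CPE, the carboxypeptidase of hormone maturation, was at -0.25 and UCHL1, a ubiquitin hydrolase of neuroendocrine cells, at -0.19 (limma adjusted p = 0.398 and 0.448).

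Among regulators of lineage choice, 17 of 19 were above the median signal, 8 were higher and 0 passed. An unadjusted limma p under 0.05 was reached by 5 of 19, against 13.6% of genes above the median signal and 11.6% of all genes. HES1, the Notch effector that represses ATOH1, read 8.63, 8.63 and 8.53 in CD133+ cells, against 8.92, 8.95 and 8.94 in CD133- cells. The groups were apart and the arrays of a group close together, with a difference of -0.34 (SE 0.081, limma adjusted p = 0.196). TCF7L2, the main Wnt-responsive factor of the crypt, read 10.08, 9.60 and 9.56 in CD133+ cells and 9.54, 9.25 and 9.09 in CD133- cells (difference 0.45, limma adjusted p = 0.132). Every CD133+ array of TCF7L2 exceeded every CD133- array.

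Tuft cell genes had 5 of 11 higher and 0 passing (1 at an unadjusted limma p under 0.05, against 11.6% of all genes). PTGS1, a cyclooxygenase, was at 0.33 (limma adjusted p = 0.311). DCLK1, a kinase marking tuft cells, read 4.77, 5.72 and 4.65 in CD133+ cells and 5.01, 7.06 and 4.66 in CD133- cells. Its difference of -0.53 (limma adjusted p = 0.482) came mainly from repetition 2, where the gap was -1.34 and both arrays stood above the other 4.

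Markers of cells outside the epithelium gave 0 calls in limma and 0 at an unadjusted p under 0.05, the latter against 11.6% of all genes. For leukocytes 2 of 6 were higher, with CD68 at 0.22 and MS4A1 at -0.28 (limma adjusted p = 0.453 and 0.522). For fibroblasts 1 of 6 was higher, with COL1A1 at -0.19 and COL3A1 at -0.21 (0.457 and 0.475), and for endothelium 0 of 5, with PECAM1 at -0.12 and TEK at -0.07 (0.720 and 0.804). Of these 17 markers 2 were above the median signal, CD68 and COL1A1.

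**Figure D4:**
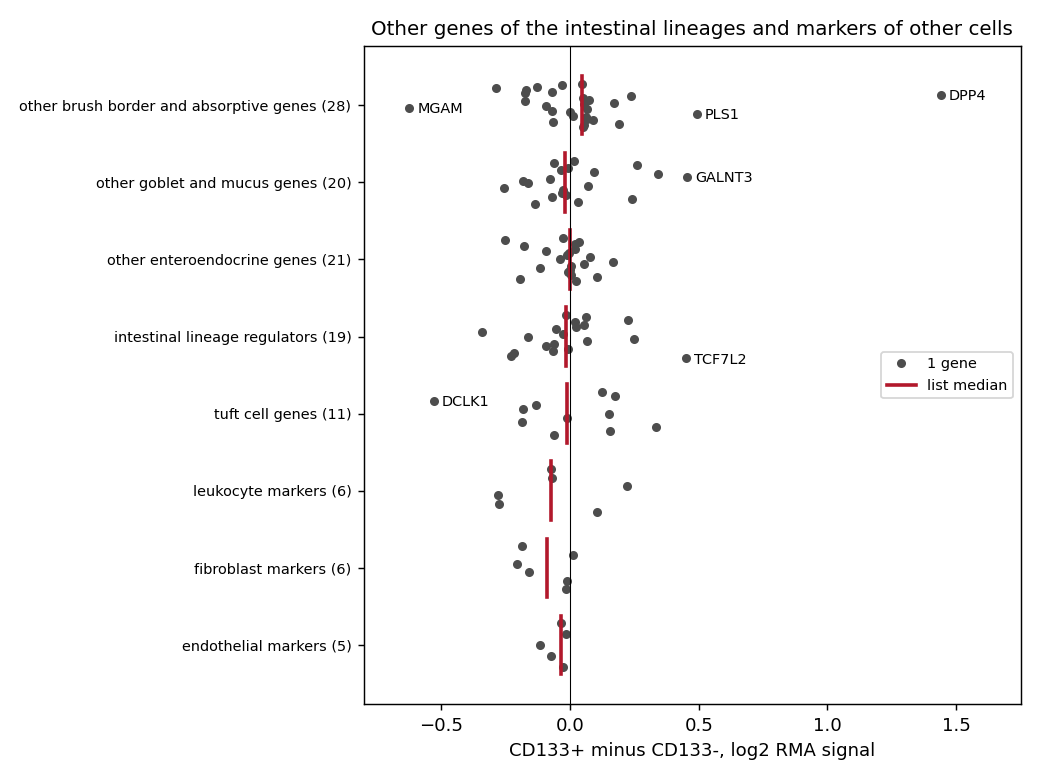
CD133+ minus CD133- difference in log2 RMA signal (horizontal axis) for genes of 8 further lists (vertical axis, with the number measured), 1 point per gene, and the list median as a red line. DPP4 at 1.44 stands alone on the right, and the medians lie between -0.09 and 0.05.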

How the data were processed

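Per the labels' protocols, total RNA of sorted HCT116 cells was taken up on columns, labelled with biotin by a whole-transcript kit and run on Affymetrix arrays. The deposited values are log2 signals that the authors made with RMA, per the labels' design text, and its software version was not given in the sources used here. That text speaks of a U133 array, but the row identifiers match the annotation of a Human Gene ST array. Values from 1.09 to 13.7 show the log2 scale. The number of arrays limits the precision.

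Of 32321 rows, 4091 that precede the first row with a gene were left out as controls. Of the 28230 tested, 19158 had 1 symbol, 1388 several and 7684 none. limma 3.58.1 in R 4.3.3 (lmFit, eBayes) was fitted with group and repetition as terms. Arrays of the same number deviated together from their groups' means (correlations 0.447 to 0.616, 3 pairs), so the numbers pair the arrays by the data, while no label names a shared day or culture. The fit was tested on simulated data with 28230 probe sets, where the residual spreads of the real ones were shuffled among them. Of 50 probe sets changed by 0.5 it recovered 1. Changes of 1, 1.5 and 2 were recovered for 38, 43 and 44 of 50, and 4 unchanged probe sets were called.

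Named with values were all markers above the median signal, the 2 of smallest p among the dim ones of each lineage, and in each other list those that passed or the 2 of smallest p. The markers and lists were chosen with earlier results of these data known. Alternatives were the fit without the block, a random block, repeated quantile normalization, median centring, control rows kept, 2 filters on dim probe sets, eBayes with trend and robust, the mean of probe sets, and each repetition left out.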

Additional observations from a re-analysis of the deposited data

How the results depend on the processing

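The SCG2 difference was positive in every alternative that kept its probe set. It was 0.83 with group as the only term (no repetition block; adjusted p = 0.952) and with control rows kept (0.157), and 0.76 to 0.88 without any 1 repetition (0.0623 to 0.181). In each of these fits 0 markers were called higher, and likewise 0 after filtering at a signal of 6, which SCG2 does not reach. With a block, leaving out 1 array removes its pair, so pairs were left out. The count over all probe sets, 84, became 1 without the block, 129 with a random block, 0 with control rows kept, 403 and 464 with filters at the median and at 6, 389 with trend and robust, and 0 to 43 without a repetition. The block changed no other call among the markers, and 0 were called lower in any fit. Lineage medians moved to -0.043 to 0.012 (absorptive), -0.081 to -0.0045 (goblet) and -0.12 to -0.030 (enteroendocrine) without a repetition, and the goblet median to -0.032 with the mean of probe sets. Members higher were 1 to 2 of the Paneth and 3 to 6 of the enteroendocrine markers without a repetition, and 5 enteroendocrine ones after repeated quantile normalization. At a signal of 6, 0 goblet and 1 enteroendocrine markers counted as above the line; at 7 it was 2 absorptive, 0 goblet and 1 enteroendocrine. Filters gave no lineage summary, since 12 and 5 markers pass them. For the other named markers, none was called in any alternative, and 206 of 206 values moved by less than the spread between repetitions. That count says little. Several alternatives leave a difference unchanged, and leaving out 1 of 3 repetitions cannot move it by that spread.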
